A study of Homo sapiens with 24 samples.

Results

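The comparison asked what became of each broad H4K20me3 domain of control cells once the cells had been treated with A-196. It used 6 of the 24 samples of the series and 6 of its 14 H4K20me3 libraries: 3 libraries of cells given the solvent DMSO and 3 of cells given A-196. All 6 came from HN-SCC-151, a cell line of HPV-negative squamous carcinoma of the head and neck with a wild type genotype, and were chosen by their titles. A-196 was given at 2.5 µM, cells were kept for 6 days under either treatment in 3 dishes per condition, and 500000 cells of a dish went into each CUT&RUN reaction. The cells are 1 established line, so the dishes repeat the treatment and not the donor.

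H4K20me3 is histone H4 that carries 3 methyl groups on its lysine 20. SUV420H1 (gene KMT5B) and SUV420H2 (gene KMT5C) add the last methyl groups to a lysine that another enzyme has already monomethylated, and A-196 inhibits both. The mark lies in compacted chromatin, together with H3K9me3, over satellite repeats, transposable elements and clusters of zinc finger genes. In CUT&RUN, an antibody guides a nuclease to the marked nucleosomes and the DNA that it cuts free is sequenced. Each deposited list gave the broad peaks of 1 library, and no list gave reads, heights or scores, so the depth behind a peak was unknown. A base is called covered here where it lay under a peak of the library.

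A control domain was a stretch of at least 5 kb that was covered in all 3 DMSO libraries, on chromosomes 1 to 22 and X. There were 6638 such domains over 116.6 Mb, with a median width of 10 kb and a greatest width of 574 kb. In an A-196 library a domain was wholly lost when no base of it was covered, intact when every base was, trimmed only when 1 covered stretch was left that missed at least 1 end, and fragmented when 2 or more covered stretches were left. A lost domain is one without a called peak; signal below the calling threshold cannot be seen in these lists. Peak ends lay on a 1000 bp grid and no peak was narrower than 5 kb in any library, so smaller remnants could not be seen either.

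The range of outcomes can be shown with 6 promoters that lay in control domains. Those of CXCL10, an interferon-induced chemokine, ACTBL2, an actin-like protein, and PIGR, the polymeric immunoglobulin receptor, lay in domains of 44 kb (chromosome 4, 76003001 to 76047000), 32 kb (chromosome 5, 57476001 to 57508000) and 26 kb (chromosome 1, 206929001 to 206955000) that were wholly lost in each A-196 library. Those of the zinc finger genes ZNF274, ZNF141 and ZNF479 lay in domains of 194, 184 and 120 kb that were intact in each of them. The 250 bases before the annotated start are given from RefSeq (GRCh38.p14), read 5′ to 3′ on the strand of the gene, with every CG dinucleotide in capitals because their number is then compared between start sites.
CXCL10 (chr4:76023498-76023747, minus strand): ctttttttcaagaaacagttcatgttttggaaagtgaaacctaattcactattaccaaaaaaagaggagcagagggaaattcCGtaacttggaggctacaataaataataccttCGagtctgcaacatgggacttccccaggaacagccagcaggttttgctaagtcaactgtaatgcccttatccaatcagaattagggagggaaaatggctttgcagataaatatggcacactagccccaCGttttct
ACTBL2 (chr5:57482812-57483061, minus strand): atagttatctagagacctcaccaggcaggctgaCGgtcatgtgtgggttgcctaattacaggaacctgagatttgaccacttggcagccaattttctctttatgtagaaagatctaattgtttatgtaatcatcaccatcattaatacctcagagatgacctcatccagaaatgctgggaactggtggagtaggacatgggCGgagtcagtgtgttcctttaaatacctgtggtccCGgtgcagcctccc
PIGR (chr1:206946467-206946716, minus strand): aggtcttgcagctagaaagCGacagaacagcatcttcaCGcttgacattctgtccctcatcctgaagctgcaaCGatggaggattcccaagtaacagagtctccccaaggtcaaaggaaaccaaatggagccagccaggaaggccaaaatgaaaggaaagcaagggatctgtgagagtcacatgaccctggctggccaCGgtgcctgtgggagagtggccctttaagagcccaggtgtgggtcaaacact
ZNF274 (chr19:58182811-58183060, plus strand): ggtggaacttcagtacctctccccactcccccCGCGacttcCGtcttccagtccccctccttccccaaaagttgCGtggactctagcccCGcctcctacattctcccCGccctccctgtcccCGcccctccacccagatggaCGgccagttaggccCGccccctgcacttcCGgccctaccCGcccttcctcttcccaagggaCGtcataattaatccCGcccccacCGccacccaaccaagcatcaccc
ZNF141 (chr4:337564-337813, plus strand): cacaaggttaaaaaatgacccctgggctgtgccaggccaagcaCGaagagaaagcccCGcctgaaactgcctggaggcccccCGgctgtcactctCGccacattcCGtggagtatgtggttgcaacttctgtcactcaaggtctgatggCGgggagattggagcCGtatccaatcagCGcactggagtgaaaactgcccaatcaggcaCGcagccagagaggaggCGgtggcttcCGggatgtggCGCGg
ZNF479 (chr7:57132437-57132686, minus strand): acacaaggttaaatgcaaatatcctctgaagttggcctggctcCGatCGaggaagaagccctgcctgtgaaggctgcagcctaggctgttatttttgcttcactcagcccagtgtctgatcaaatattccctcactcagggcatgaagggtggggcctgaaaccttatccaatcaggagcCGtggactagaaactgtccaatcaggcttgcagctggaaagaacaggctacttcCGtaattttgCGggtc

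The promoters of CXCL10, ACTBL2 and PIGR hold 3, 3 and 4 CG dinucleotides, and those of ZNF274, ZNF141 and ZNF479 hold 14, 13 and 5. Of 15812 protein-coding promoters with a sequence, the median was 17 and 66.0% held at least 10. Among the 477 promoters whose start site lay in a control domain, the median was 9 and 49.9% held at least 10. In the 67 of these whose domain was wholly lost in every A-196 library the median was 4 and 31.3% held at least 10. In the 159 whose own 1 kb bin stayed covered in every A-196 library the median was 15 and 71.1% held at least 10. Zinc finger genes made up 94 of those 159 and 1 of those 67. The 80 of the 159 on chromosomes other than 19 had a median of 13 and 57.5% held at least 10. These are counts of letters in 1 window per gene, given as a description.

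Most control domains did not keep their extent after A-196. A mean of 57.7% ± 11.1 (SD, n = 3) of domain bases was uncovered with A-196, and 51.9% ± 10.3 of the domains were wholly lost. Only 8.95% ± 5.85 of the domains were intact, 31.8% ± 3.72 were trimmed only and 7.41% ± 0.726 were fragmented. To give DMSO libraries values that were not fixed by the choice of domains, each DMSO library was scored on the 7120 to 7342 domains defined by the other 2, and each A-196 library was scored on the same 3 sets and averaged. Measured in this way, a left-out DMSO library missed 6.96% ± 1.82 of the bases and lost 8.15% ± 1.90 of the domains.

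The uncovered share of domain bases was 4.89%, 8.34% and 7.63% in DMSO replicates 1 to 3 and 60.8%, 67.0% and 45.4% in A-196 replicates 1 to 3. The groups lay far apart, and A-196 replicate 3 was the treated library nearest to the controls. The difference was 50.8 percentage points (higher in 3 of 3 A-196 libraries; p = 0.1 by an exact two-sided permutation test with n = 3 against 3, 0.114 after adjustment over 8 measures), and 57.0 points without replicate 3. The 20 possible splits of 6 libraries allow no p under 0.1, so no measure in this comparison could pass 0.05. The share of domains wholly lost was 5.96%, 9.34% and 9.15% with DMSO and 55.9%, 59.5% and 40.2% with A-196. The share left intact was 70.0%, 53.4% and 58.8% with DMSO and 6.52%, 4.71% and 15.6% with A-196. Neither pair of groups overlapped, and both differences had the same exact p of 0.1 and adjusted p of 0.114. Leaving out DMSO replicate 1, 2 or 3, so that domains came from 1 DMSO library at a time, moved the difference in intact domains from -51.8 to -30.6, -33.1 and -31.4 points, and domains from bases covered in any DMSO library moved it to -19.3 points.

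The share of domains trimmed only overlapped between the groups and the share fragmented did not, and both differences depended on how domains were defined. Domains trimmed only made up 22.2%, 33.6% and 29.6% with DMSO and 30.2%, 29.1% and 36.0% with A-196, and these ranges overlapped (difference 3.31 points, exact two-sided permutation p = 0.5, n = 3 against 3). The direction of this difference turned with the domain set. It was -18.5 points with bases covered in any DMSO library and -10.6 points with 1 DMSO library at a time (exact p = 0.1 for both), and -10.6, -10.3 and -10.9 points without DMSO replicate 1, 2 or 3 (exact p = 0.2 each), but 11.4 points among domains of at least 10 kb (exact p = 0.1). What differed was the extent of the trimming. A trimmed-only domain missed a median of 1 kb at its ends in each DMSO library and 5, 5.5 and 4 kb in A-196 replicates 1 to 3, which left a median of 87.5% of it covered with DMSO and 60.0%, 55.2% and 66.7% with A-196. Fragmented domains made up 1.85%, 3.60% and 2.41% with DMSO and 7.34%, 6.71% and 8.16% with A-196, with no overlap (exact p = 0.1, adjusted p = 0.114). The difference of 4.78 points was 2.65, 2.95 and 2.52 points without DMSO replicate 1, 2 or 3, 1.21 points (exact p = 0.2) with bases covered in any DMSO library, and 9.16 points among domains of at least 10 kb. Among domains not wholly lost, 3.80% ± 1.52 of those in DMSO libraries and 45.4% ± 7.33 of those in A-196 libraries missed both ends (SD, n = 3 each, exact permutation p = 0.1). Those domains held 1.03 ± 0.0112 covered stretches each with DMSO and 1.31 ± 0.0520 with A-196.

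**Figure D1:**
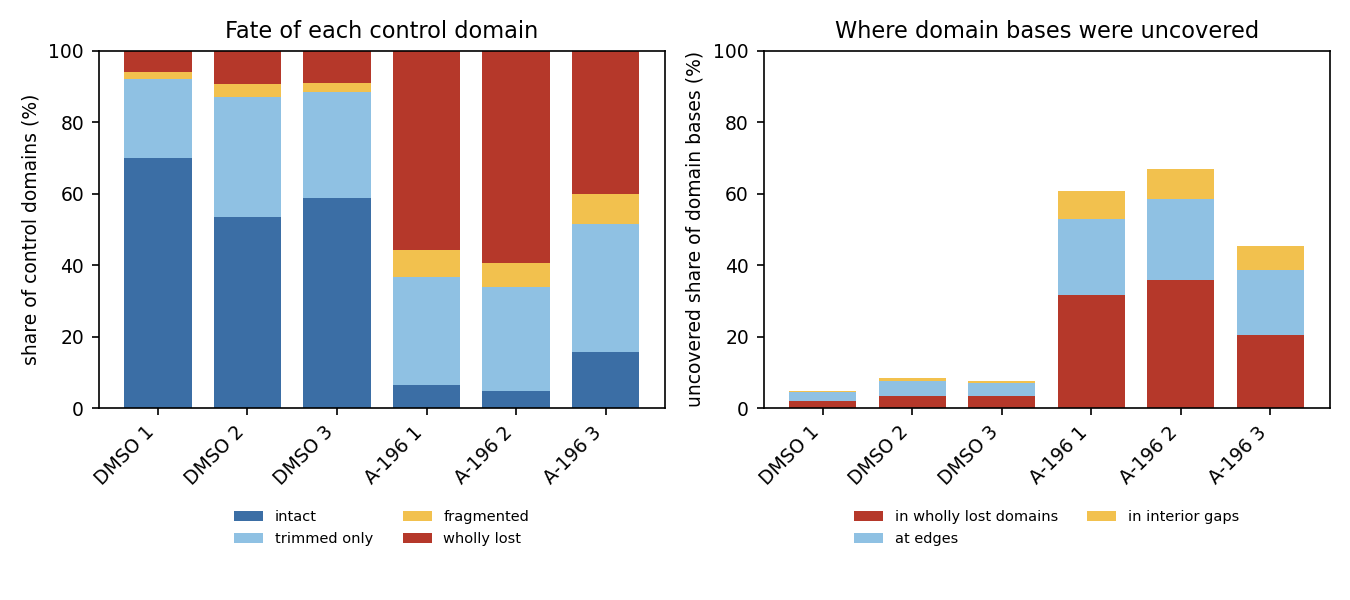
Left, the share of control domains (percent) that were intact, trimmed only, fragmented or wholly lost in each of the 6 libraries; right, the uncovered share of domain bases (percent), divided into bases of wholly lost domains, bases at domain edges and bases in interior gaps. DMSO libraries were scored on domains from the other 2 DMSO libraries. Wholly lost domains make up 40.2% to 59.5% in the A-196 libraries and 5.96% to 9.34% in the DMSO libraries, while trimmed-only domains make up 29.1% to 36.0% and 22.2% to 33.6%.

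The bases that went uncovered were divided by where they lay. With A-196, 52.0%, 53.4% and 45.1% of them lay in wholly lost domains, 34.8%, 33.8% and 40.2% lay between a domain end and the nearest covered base, and 13.2%, 12.8% and 14.7% lay in gaps between covered stretches. With DMSO, 41.3% ± 1.24 lay in lost domains, 51.1% ± 0.985 at edges and 7.58% ± 1.52 in gaps. With these domain sets each of the 3 shares differed without overlap, by 8.81, -14.8 and 6.00 points (exact two-sided permutation p = 0.1, adjusted p = 0.114, n = 3 against 3). The difference in the share of lost domains was 4.49, 5.95 and 4.56 points without DMSO replicate 1, 2 or 3 (exact p = 0.3, 0.2 and 0.3), 1.38 points with edges and gaps of 1 kb filled (exact p = 0.6) and 32.2 points among domains of at least 10 kb, where the gap share differed by 1.41 points (exact p = 0.5). With every library limited to its widest peaks up to the 79.6 Mb of A-196 replicate 1, the share in lost domains differed by -32.2 points and the share at edges by 12.1 points, domains wholly lost differed by 12.4 points and domains fragmented by 26.7 points.

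Outcomes differed by domain width. Of the 6638 domains, 3130 were under 10 kb wide (22.1 Mb), 2135 were 10 to 19 kb (27.7 Mb), 1032 were 20 to 49 kb (30.5 Mb), 225 were 50 to 99 kb (15.045 Mb) and 116 were 100 kb or wider (21.3 Mb). Most domains under 10 kb were wholly lost with A-196, and most of those of 50 kb or more were fragmented. The share wholly lost was 71.6% ± 9.76 under 10 kb, 44.9% ± 12.6 at 10 to 19 kb, 20.6% ± 10.1 at 20 to 49 kb, 4.0% ± 4.07 at 50 to 99 kb and 0.362% ± 0.426 at 100 kb or more (SD, n = 3). The share fragmented was higher in wider classes, with 0.138% ± 0.0642, 1.36% ± 0.303, 20.2% ± 3.97, 69.5% ± 5.94 and 86.4% ± 5.94 in the same order. Its low end is set by the peak lists: with no peak under 5 kb and no gap under 2 kb, a domain under 10 kb can hold 2 stretches only where a peak runs past its end. The share wholly lost depends on width by definition too, since 1 peak anywhere in a domain keeps it from counting as lost.

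Left-out DMSO libraries showed how much of this belongs to narrow domains in any library. They lost 16.7% ± 3.77 of domains under 10 kb, 0.530% ± 0.325 of those of 10 to 19 kb, and none of those of 50 kb or more. They fragmented 7.91% ± 2.68, 16.8% ± 5.64 and 17.8% ± 11 of the domains in the 3 widest classes. A-196 and DMSO libraries did not overlap in the share wholly lost in the 4 classes under 100 kb, in the share fragmented in the 3 classes of 20 kb or more, or in the share of bases uncovered in any class (exact two-sided permutation p = 0.1, adjusted p = 0.125 over 15 measures, n = 3 against 3). They overlapped in the share fragmented under 20 kb and in the share wholly lost at 100 kb or more (exact p = 0.4 for the latter). At 20 to 49 kb the difference of 12.2 points in the share fragmented was 5.16, 5.77 and 4.63 points without DMSO replicate 1, 2 or 3 (exact p = 0.3, 0.2 and 0.4) and -0.917 points with bases covered in any DMSO library (exact p = 0.9). With the last setting the differences at 50 to 99 kb and at 100 kb or more were 28.1 and 37.4 points, in place of 52.7 and 68.6, and the groups stayed apart (exact p = 0.1). The uncovered share of bases was 76.5% ± 9.73 with A-196 in domains under 10 kb and 37.7% ± 11.4 in those of 100 kb or more, beside 20.1% ± 4.47 and 0.854% ± 0.538 with DMSO.

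**Figure D2:**
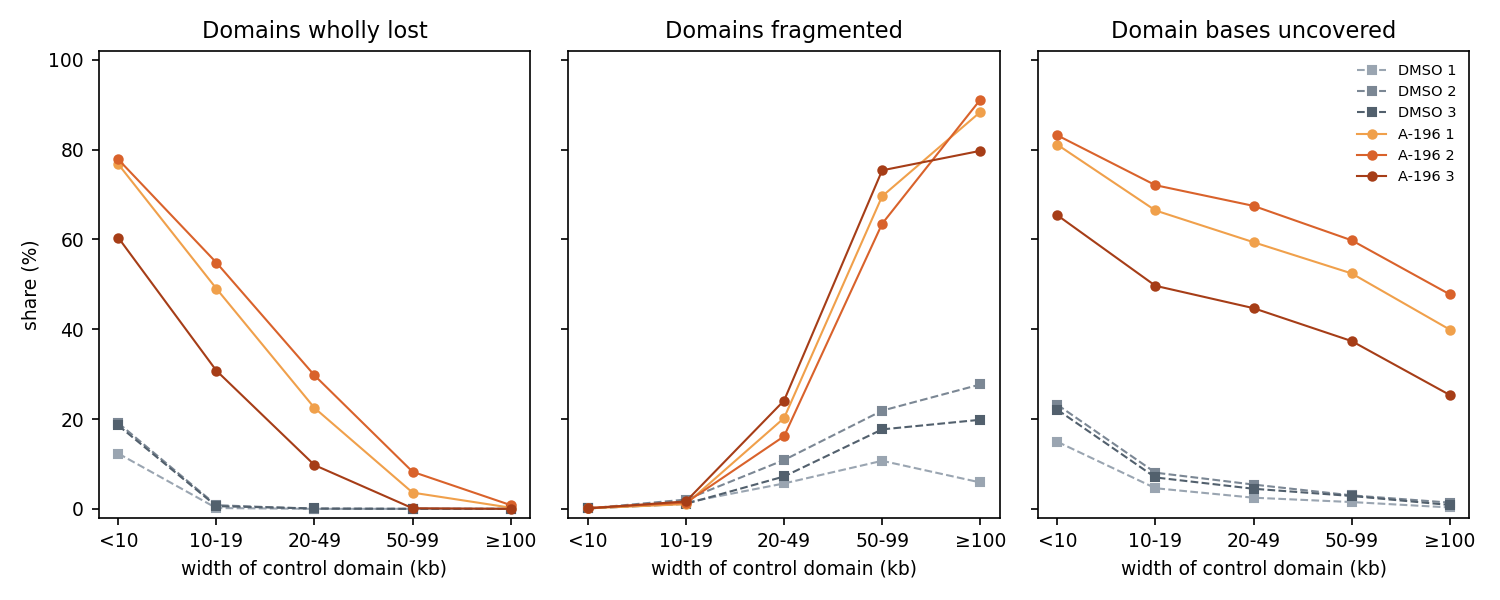
Share (percent) of control domains wholly lost, of control domains fragmented and of domain bases uncovered, by width of the control domain in kb; each line joins the values of 1 library, squares for DMSO and circles for A-196. In the A-196 libraries the mean share wholly lost is 71.6% in the narrowest class and 0.362% in the widest, while the mean share fragmented is 0.138% and 86.4%.

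In wide domains the remnants were many per domain and short beside the width of the domain, but not shorter than in narrower domains. In the 116 domains of 100 kb or more, A-196 replicates 1 to 3 left a mean of 4.71, 5.11 and 4.36 covered stretches per domain, with up to 17, 25 and 16 in 1 domain. The median stretch was 11, 9 and 14 kb long and the median gap 7.5, 8 and 6 kb, with widest gaps of 74, 90 and 58 kb. Gaps held 61.5%, 59.9% and 66.7% of the uncovered bases of these domains. In domains of 50 to 99 kb the larger part lay at the edges instead, with 58.2%, 56.5% and 58.1% of the uncovered bases. Their median stretch was 10, 9 and 13 kb long. Per 100 kb of domain they held 3.20, 3.15 and 3.28 stretches, against 2.57, 2.77 and 2.38 in domains of 100 kb or more. In domains under 10 kb, 92.3%, 92.0% and 87.9% of the uncovered bases lay in domains that were wholly lost.

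Coverage was lowest at the ends of a domain and higher inwards, without reaching the control level. In domains of 100 kb or more, the outermost kb was covered in 16.6%, 18.1% and 28.5% of cases in A-196 replicates 1 to 3, the kb at 5 kb from the end in 33.8%, 30.8% and 53.0%, that at 10 kb in 47.0%, 35.5% and 63.4%, and that at 50 kb in 59.2%, 51.1% and 73.0%. Left-out DMSO libraries covered 90.3%, 68.5% and 81.8% of the outermost kb and 95.4% to 98.7% of the kb at 5 kb. The narrower classes had the same form: at 10 kb from the end, coverage was 49.4% in domains of 20 to 49 kb, 49.6% in those of 50 to 99 kb and 48.6% in those of 100 kb or more (means of 3 A-196 libraries). Of the ends of domains that were not wholly lost, 34.2%, 32.9% and 47.2% were still covered. At 18.6%, 19.1% and 26.7% of these ends a peak ran on beyond the control domain, by a median of 3, 3 and 2 kb.

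**Figure D3:**
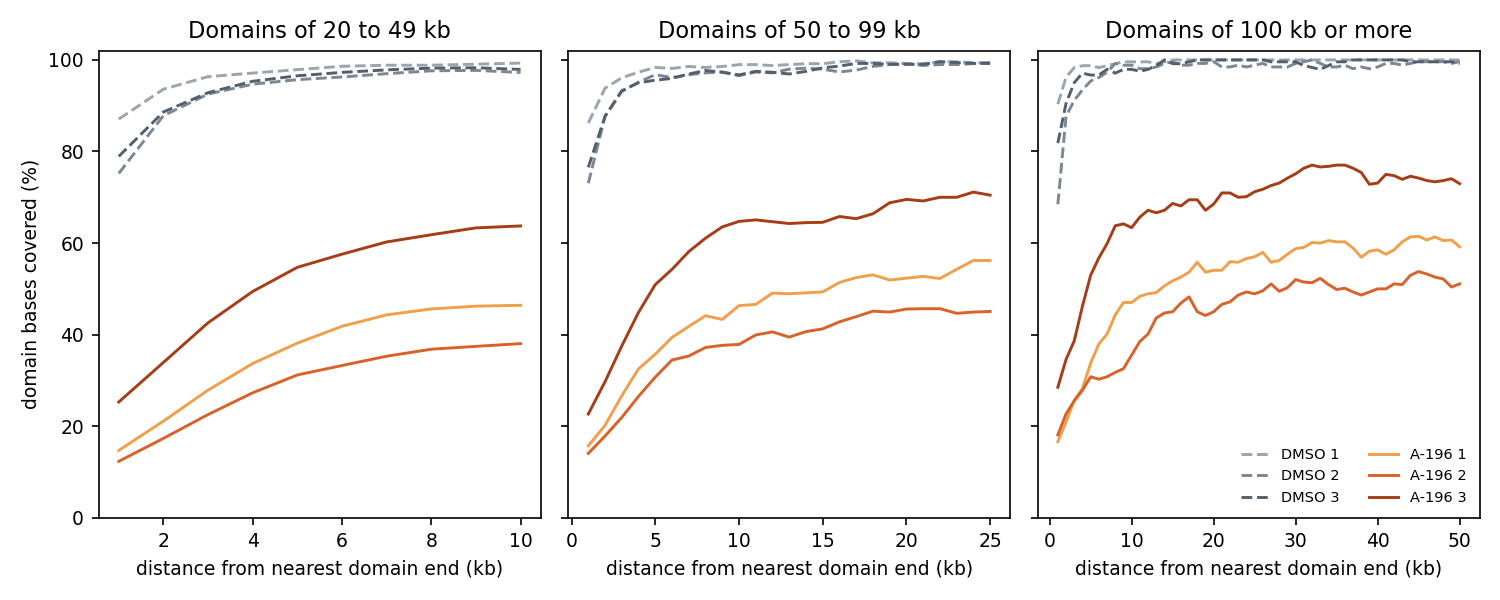
Share of domain bases covered (percent) by distance from the nearest end of the control domain (kb), for domains of 20 to 49, 50 to 99 and 100 kb or more; dashed lines are DMSO libraries on domains from the other 2 DMSO libraries and solid lines are A-196 libraries. In the widest class the A-196 lines start at 16.6% to 28.5% and reach 51.1% to 73.0% at 50 kb, under DMSO lines near 100%.

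The 3 A-196 libraries agreed on the fate of fewer domains than they disagreed on. On the 6638 control domains, 1896 were wholly lost in all 3 libraries (28.6%), 187 were intact in all 3 (2.82%), 739 were trimmed only in all 3 (11.1%) and 233 were fragmented in all 3 (3.51%). Together these 3055 domains with 1 shared fate were 46.0% of all. By whole loss alone, beside the 1896 domains lost in all 3 libraries, 1435 (21.6%) were lost in 2, 1211 (18.2%) in 1 and 2096 (31.6%) in none. Counted in bases, 35.8% of the domain length was covered in no A-196 library, 21.6% in 1, 16.1% in 2 and 26.4% in all 3, which is 30.8 Mb.

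Agreement on whole loss was a matter of narrow domains. Among domains under 10 kb, 1423 (45.5%) were lost in all 3 libraries, among those of 10 to 19 kb 419 (19.6%), among those of 20 to 49 kb 54 (5.23%) and among wider ones none. In the widest class 88 of 116 domains (75.9%) were fragmented in all 3 libraries, and in the class below 101 of 225 (44.9%). Trimming in all 3 was most frequent between 10 and 49 kb, with 414 domains (19.4%) at 10 to 19 kb and 248 (24.0%) at 20 to 49 kb.

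The losses of replicate 3 lay mostly within those of the other 2 libraries. Replicates 1 to 3 lost 3527, 3801 and 2441 of the domains. Of the domains lost in replicate 3, 86.7% were also lost in replicate 1 and 87.5% in replicate 2, whereas 60.0% of the losses of replicate 1 and 56.2% of those of replicate 2 were shared by replicate 3. Replicates 1 and 2 shared 2870 losses, 81.4% of those of replicate 1 and 75.5% of those of replicate 2. In bases, 89.5% of what replicate 1 kept and 90.0% of what replicate 2 kept was also kept in replicate 3. A domain covered in 1 library alone was covered in replicate 3 in 974 cases, in replicate 1 in 240 and in replicate 2 in 221. The most frequent mixed outcome, with 743 domains, was whole loss in replicates 1 and 2 and trimming in replicate 3.

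The counts of agreement moved with single libraries and with the domain set. Without A-196 replicate 3, 2870 domains were lost and 1136 trimmed only in both remaining libraries, and without replicate 2, 400 were intact and 1241 trimmed only in both. With domains from bases covered in any DMSO library, 4594 were lost and 89 intact in all 3, with domains of at least 10 kb 473 were lost and 82 intact, and with all libraries limited to 79.6 Mb of their widest peaks 91 were lost, 29 intact and 253 trimmed only.

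The widest domains show how unequal the 3 treated libraries were along 1 stretch. The widest of all, 574 kb over POU5F1B and part of the span of the oncogene MYC (chromosome 8, 127163001 to 127737000), kept 378, 308 and 471 kb in A-196 replicates 1 to 3, in 17, 25 and 15 stretches. Of it, 255 kb was covered in all 3. A 569 kb domain with FAM9C, TMSB4X, which encodes the actin-binding thymosin beta 4, and ATXN3L (chromosome X, 12933001 to 13502000) kept 423, 324 and 514 kb in 13, 19 and 8 stretches. In both, replicate 2 kept the least in the most pieces and replicate 3 the most. A 384 kb domain that reaches into AHR, the aryl hydrocarbon receptor gene (chromosome 7, 17341001 to 17725000), kept 303, 256 and 369 kb in 10, 10 and 4 stretches.

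Several of the 10 widest domains held no protein-coding gene. That on chromosome 3 (177331001 to 177883000, nearest gene TBL1XR1) kept 439, 407 and 506 of 552 kb, and that on chromosome 10 (89980001 to 90510000, nearest KIF20B) kept 338, 279 and 401 of 530 kb. The 483 kb domain on chromosome 6 (113249001 to 113732000, nearest MARCKS) kept 270, 213 and 402 kb in 14, 16 and 16 stretches, and the 421 kb domain on chromosome 13 (73150001 to 73571000, nearest KLF5) kept 303, 255 and 355 kb. In all 4, replicate 3 kept the most and replicate 2 the least. The 352 kb domain on chromosome X (46061001 to 46413000, nearest KRABD4) kept 282, 301 and 338 kb.

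Among these 10, a domain on chromosome 12 and one on chromosome 7 kept nearly everything. The first spans ZNF26, ZNF605 and ZNF268 (132880001 to 133259000) and kept 373, 369 and 379 of its 379 kb. The second holds no coding gene (56399001 to 56746000, nearest LOC107986800) and kept 344, 332 and 347 of 347 kb. In both, replicate 3 left the domain intact and the other libraries broke it into 2 or 3 stretches.

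**Figure D4:**
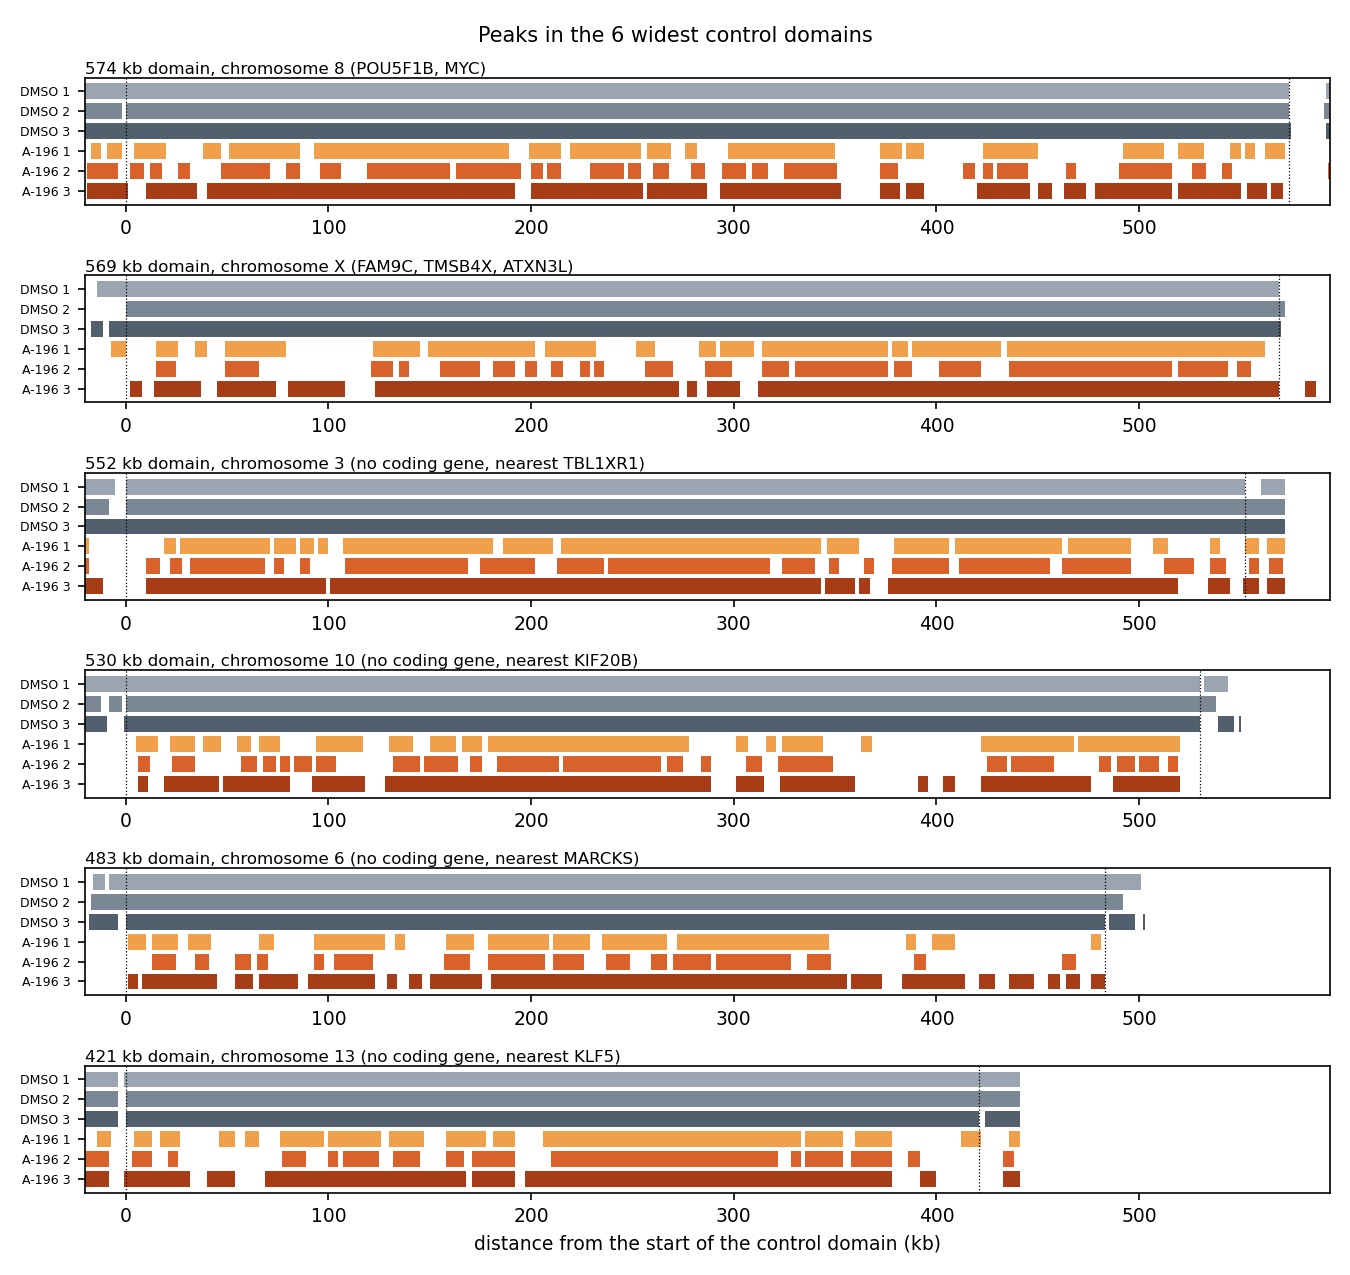
Peaks of each library (bars) along the 6 widest control domains, as distance in kb from the start of the domain, with up to 20 kb shown on both sides; dotted lines mark the domain ends. The DMSO bars run through each domain, and the A-196 bars break into 6 to 25 stretches, fewest in A-196 replicate 3 in 5 of the 6 panels.

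The widest domains that were wholly lost in every A-196 library were far narrower than these. The widest was the 44 kb domain over part of ART3 and over CXCL9, CXCL10 and CXCL11, chemokines that draw T cells (chromosome 4, 76003001 to 76047000), whose CXCL10 promoter is printed above. The next 4 held no coding gene and lay on chromosome 3 (30467001 to 30508000), chromosome 6 (44715001 to 44755000), chromosome 2 (191567001 to 191601000) and chromosome 4 (135199001 to 135233000), with widths of 41, 40, 34 and 34 kb. The last of them lay 997 kb from the nearest gene, PABPC4L.

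The 5 widest domains that stayed intact in every A-196 library all held or neighboured zinc finger genes, which encode DNA-binding transcription factors. They were a 194 kb domain with ZNF544, ZNF274 and ZNF329 (chromosome 19, 58091001 to 58285000), a 184 kb domain with ZNF721, ZNF141 and PIGG (chromosome 4, 319001 to 503000), domains of 120 kb over ZNF479 and of 142 kb lying 80.1 kb from it (chromosome 7, 57082001 to 57202000 and 57220001 to 57362000), and a 99 kb domain with ZSCAN4, ZNF211 and ZNF134 (chromosome 19, 57606001 to 57705000). Each was covered from end to end in all 3 libraries.

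Domains that were trimmed only in every A-196 library reached 104 kb. The 104 kb domain over TMEM67, a gene of the cilium, and PDP1 (chromosome 8, 93816001 to 93920000) kept 101, 100 and 103 kb. That over CYP24A1, the enzyme that inactivates vitamin D (chromosome 20, 54083001 to 54161000), kept 56, 53 and 71 of 78 kb, with 13, 17 and 1 kb missing at its lower end and 9, 8 and 6 kb at its upper end. A 77 kb domain between P3H2 and TP63, the master regulator of squamous cells (chromosome 3, 189889001 to 189966000), kept 66, 71 and 67 kb. A 54 kb domain on chromosome 2 without a gene (128717001 to 128771000) kept 28, 33 and 49 kb.

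Domains that were wholly lost in 1 A-196 library and intact in another were at most 19 kb wide. The 5 widest of them follow. A 15 kb domain inside MAP4K5, a protein kinase gene (chromosome 14, 50467001 to 50482000), kept 0, 6 and 15 kb in replicates 1 to 3, and a 15 kb domain inside TRIM16 (chromosome 17, 15650001 to 15665000) kept 5, 0 and 15 kb. A 19 kb domain on chromosome 19 near ZNF98 (22467001 to 22486000) kept 16, 0 and 19 kb. The 18 kb domain on chromosome 20 (29081001 to 29099000) kept 17, 0 and 18 kb, and the 15 kb domain on chromosome 5 near CDH9 (27198001 to 27213000) kept 15, 0 and 13 kb. In 4 of the 5, replicate 2 was the library with nothing left.

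The extent of loss differed by chromosome. The mean uncovered share of domain bases with A-196 was 21.1% on chromosome 19, 24.5% on chromosome 22, 40.8% on chromosome 21, 47.0% on chromosomes 7 and X, and 49.1% on chromosome 16. It was highest on chromosome 4, with 67.9%. On chromosome 19 the A-196 libraries had 22.4%, 33.1% and 7.79% uncovered and the DMSO libraries 3.40%, 9.89% and 7.13%, so that A-196 replicate 3 lay among the controls (difference 14.3 points, exact two-sided permutation p = 0.2, adjusted p = 0.2 over 23 chromosomes, n = 3 against 3). On the other 22 chromosomes the groups did not overlap, with differences of 17.9 points on chromosome 22 to 59.3 points on chromosomes 4, 14 and 18 (exact p = 0.1, adjusted p = 0.105). On each chromosome A-196 replicate 2 had the largest uncovered share and replicate 3 the smallest.

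**Figure D5:**
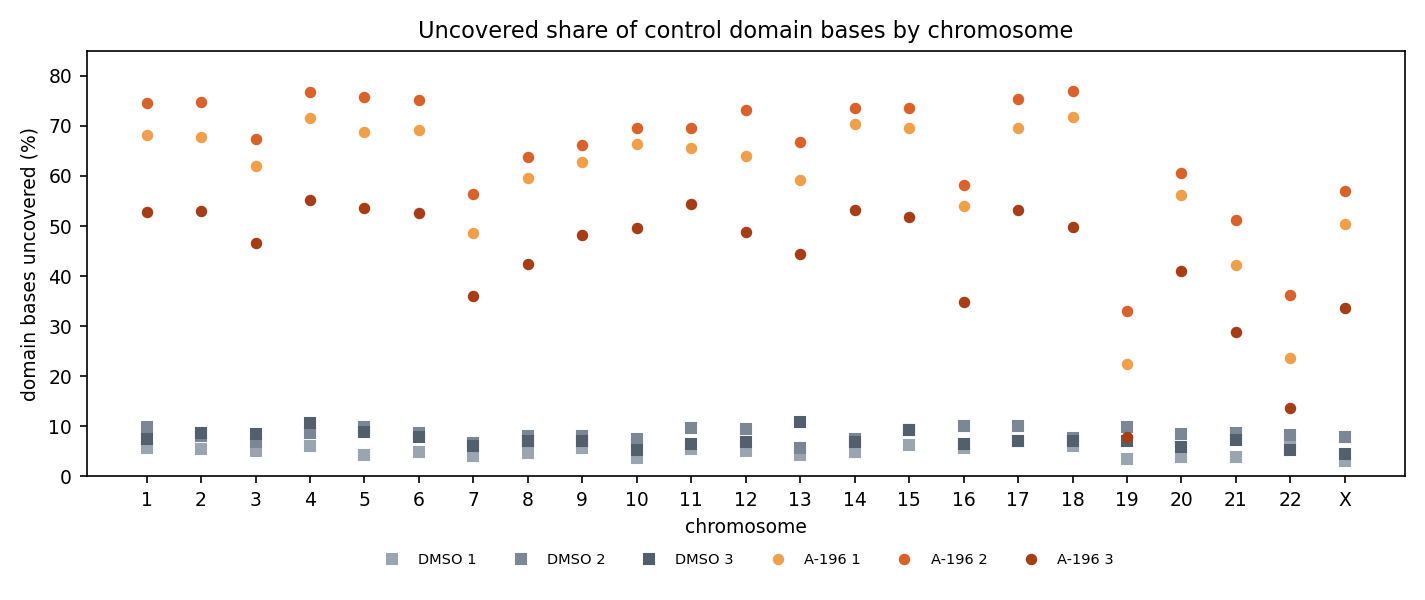
Uncovered share of control domain bases (percent) in each library on chromosomes 1 to 22 and X; squares are DMSO libraries on domains from the other 2, circles are A-196 libraries. Chromosome 19 is the one where a treated library (7.79%) lies within the range of the controls (3.40% to 9.89%), and chromosome 22 comes next with 13.7% to 36.3%.

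Whole loss in all 3 libraries was also least frequent on chromosomes 19, 22 and 21, while the order of the other chromosomes differed from that of uncovered bases. On chromosome 19, 9 of 247 domains (3.64%) were lost in all 3 A-196 libraries, on chromosome 22 8 of 62 (12.9%) and on chromosome 21 19 of 134 (14.2%), beside 178 of 436 (40.8%) on chromosome 4 and 123 of 324 (38.0%) on chromosome 12. Over all domains the share was 28.6%. Median domain widths were 12, 9, 12.5, 9.5 and 9 kb on these 5 chromosomes, in that order, and 10 kb over all domains. Within domains under 10 kb, 5.43% of 92 were lost in all 3 libraries on chromosome 19, 24.4% of 82 on chromosomes 21 and 22, and 47.3% of 2956 on the other chromosomes. In domains of 20 to 49 kb, the uncovered shares on chromosome 19 were 14.6%, 26.9% and 3.02% in replicates 1 to 3, and 61.0%, 69.1% and 45.9% on the other chromosomes.

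Of the 187 domains intact in all 3 libraries, 59 lay on chromosomes 19, 21 and 22, which is 31.6%, against 6.67% of all domains. Fewer of the 187 overlapped a protein-coding gene (24.6%, against 33.2% of all), more overlapped a zinc finger gene (12.3%, against 4.17%), and more lay at least 100 kb from any coding gene (48.1%, against 29.8%). Of the 1896 domains lost in every library, 31.9% overlapped a coding gene and 0.475% a zinc finger gene.

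Zinc finger genes were the list with the most domains. Of 556 such genes by symbol, 283 overlapped a control domain, in 277 domains with a median width of 14 kb. Of these domains 9 (3.25%) were lost in all 3 A-196 libraries and 23 (8.30%) were intact in all 3, beside 28.6% and 2.82% of all domains. Uncovered shares of their bases were 17.6%, 25.7% and 5.40% in replicates 1 to 3, beside 58.7%, 65.3% and 42.8% over all domains. The 335 kb domain with ZNF577, ZNF841 and ZNF616 (chromosome 19, 51849001 to 52184000) kept 335, 330 and 335 kb, and the 227 kb domain with ZNF675 and ZNF681 (chromosome 19, 23622001 to 23849000) kept 214, 198 and 227 kb.

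Position and gene content could be set side by side. On chromosome 19, 1 of 165 domains with a zinc finger gene (0.606%) and 8 of 82 domains without one (9.76%) were lost in all 3 libraries. On the other chromosomes, 8 of 112 domains with a zinc finger gene (7.14%) and 1879 of 6279 without one (29.9%) were lost. The median uncovered share per domain was 13.5%, 33.3%, 30.7% and 73.3% in these 4 sets. Their median widths were 14, 9, 14 and 10 kb, and the sets were not matched for width. These are descriptions of domains that share libraries, and no test was made between the sets.

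Other gene groups lay in few domains each, and their outcomes ranged from near full retention to near full loss. Of 53 clustered protocadherins, adhesion molecules of neurons, 18 lay in 5 domains, none lost in all 3 libraries. The 43 kb domain with PCDHGA1 (chromosome 5, 141289001 to 141332000) kept 43, 42 and 43 kb, and the uncovered shares over the 5 domains were 6.94%, 15.3% and 1.39%. Of 55 keratins, the intermediate filament proteins of epithelia and hair, 11 lay in 7 domains, 4 of which were lost in all 3 libraries, where 28.6% of all domains were. Uncovered shares over these 7 were 95.1%, 89.7% and 87.7%, beside 58.7%, 65.3% and 42.8% over all domains. The 111 kb domain over the hair keratins KRT33B, KRT34 and KRT33A (chromosome 17, 41312001 to 41423000) kept 12, 20 and 20 kb, the 80 kb domain with KRT23 (40902001 to 40982000) kept 0, 0 and 10 kb, and the 18 kb domain over KRT7 (chromosome 12, 52217001 to 52235000) kept none. Of 94 keratin-associated protein genes, 13 lay in 7 domains, 2 of them lost in all 3 libraries, near the share of all domains, with 81.4% to 85.1% of bases uncovered.

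The epidermal differentiation complex, whose proteins build the cornified envelope, had 18 of 61 genes in 10 domains. In all 3 libraries 2 of these were lost, beside 28.6% of all domains, but their median width was 19.5 kb, against 10 kb. Uncovered shares of their bases were 75.8%, 71.1% and 53.2% in replicates 1 to 3, above the 58.7%, 65.3% and 42.8% over all domains. The 177 kb domain with SPRR2G, SPRR2B and SPRR2F (chromosome 1, 153023001 to 153200000) kept 51, 69 and 103 kb in 5, 6 and 7 stretches. The 64 kb domain over RPTN (152126001 to 152190000) kept 20, 23 and 32 kb, and the 43 kb domain over TCHH, the trichohyalin gene (152070001 to 152113000), kept 15, 7 and 13 kb. Of 33 squamous epithelial genes, 9 lay in 14 domains with a median width of 38.5 kb. Among these, 1 was lost in all 3 libraries, and 38.8%, 47.8% and 29.3% of their bases were uncovered. The 260 kb domain of the growth factor receptor gene EGFR (chromosome 7, 54760001 to 55020000) kept 247, 218 and 260 kb. A 103 kb domain of TP63 (chromosome 3, 189700001 to 189803000) kept 30, 15 and 50 kb in 5, 3 and 6 stretches, and the 45 kb domain of COL17A1, a hemidesmosome collagen (chromosome 10, 104079001 to 104124000), kept 38, 35 and 39 kb.

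Of 48 chemokine genes, 9 lay in 7 domains, 1 of them lost in all 3 libraries, against 28.6% of all domains. Their median width was 57 kb, against 10 kb over all domains. Uncovered shares of their bases were 64.5%, 71.8% and 48.0% in replicates 1 to 3, above the 58.7%, 65.3% and 42.8% over all domains. The 121 kb domain with CXCL6, CXCL1 and PF4V1 (chromosome 4, 73774001 to 73895000) kept 19, 0 and 36 kb. It was the single domain of 100 kb or more that was wholly lost in an A-196 library, replicate 2. The neighbouring 100 kb domain with CXCL8, the main neutrophil attractant (73642001 to 73742000), kept 48, 45 and 76 kb, and the 58 kb domain with CCL28 (chromosome 5, 43390001 to 43448000) kept 45, 43 and 46 kb. Of 50 interferon-stimulated genes, 10 lay in 9 domains, of which 4 were lost in all 3 libraries, beside the same 28.6%. The 58 kb domain with the antiviral gene IFIT2 (chromosome 10, 89249001 to 89307000) kept 19, 11 and 23 kb, that of EPSTI1 (chromosome 13, 42972001 to 43027000) kept 29, 13 and 47 of 55 kb, and that of SAMD9 (chromosome 7, 93100001 to 93127000) kept 18, 21 and 26 of 27 kb.

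Of 10 UGT2 genes, which encode glucuronosyltransferases, 3 lay in 1 domain each: UGT2B17 (23 kb) and UGT2B7 (11 kb) kept nothing in any A-196 library, and UGT2B15 (chromosome 4, 68634001 to 68675000) kept 14, 0 and 23 of 41 kb. With 3 domains, a share beside the 28.6% of all domains lost in all 3 libraries says little. Class 3 semaphorins, secreted guidance factors, had 3 of 7 genes in 11 domains, 4 of them lost in all 3 libraries, near the 28.6% of all domains. Their median width was 27 kb, against 10 kb over all domains, and 62.7%, 67.7% and 53.6% of their bases were uncovered. The 228 kb domain of SEMA3C (chromosome 7, 80916001 to 81144000) kept 148, 107 and 174 kb in 11, 9 and 7 stretches, and a 36 kb domain of SEMA3A (84216001 to 84252000) kept 0, 13 and 9 kb. Cadherins had 2 of 23 genes in 11 domains, 4 of them lost in all 3, again near the 28.6% of all domains. The 28 kb domain of CDH18 (chromosome 5, 19514001 to 19542000) kept 13, 16 and 18 kb. Olfactory receptors had 4 of 392 genes in 5 domains and none lost in all 3. That of OR2C1 (chromosome 16, 3300001 to 3324000), which also holds zinc finger genes, kept 24, 22 and 24 kb.

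Of 25 genes of H4K20 methylation and heterochromatin, only EHMT1, an H3K9 methyltransferase gene, overlapped a control domain, of 7 kb (chromosome 9, 137711001 to 137718000), which kept 0, 0 and 5 kb. KMT5B and KMT5C lay in none. Of 30 markers of fibroblasts, endothelium, leukocytes, liver, heart and brain, FAP and ITGAM lay in a control domain. Peak lists hold no expression, so they give no check of the cell line or of the action of A-196 on the enzymes.

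Domains with and without genes were compared within width classes. Whole loss in all 3 libraries had like shares in narrow domains with and without a gene. Domains with a gene were less uncovered in every replicate at 20 to 49 kb and at 100 kb or more. At 50 to 99 kb this did not hold in replicate 3. Among domains under 10 kb, 44.2% of the 1008 that overlapped a protein-coding gene and 46.0% of the 2122 that did not were lost in all 3 libraries. At 10 to 19 kb the shares were 19.4% and 19.7%. At 20 to 49 kb the uncovered shares of bases in replicates 1 to 3 were 52.6%, 61.9% and 38.7% with a gene and 60.6%, 68.6% and 45.1% without one. At 50 to 99 kb they were 48.0%, 56.1% and 34.5% with a gene and 50.5%, 58.0% and 34.3% without one. In domains of 100 kb or more the uncovered shares of bases were 34.6%, 44.2% and 20.7% with a gene and 42.5%, 48.8% and 27.6% without one, and 35 of 54 domains with a gene and 53 of 62 without one were fragmented in all 3 libraries. These differences were not tested. Domains with a gene include those with a zinc finger gene, of which 17.6%, 25.7% and 5.40% of bases were uncovered. Their part in the differences was not tested either. The 469 bins of 1 kb that held a coding start site were uncovered in 53.7%, 60.6% and 42.2% of cases in replicates 1 to 3, and the other bins of the same domains in 40.3%, 47.3% and 26.9%. Start site bins lay a median of 3 kb from a domain end and the others 14 kb. In domains of 100 kb or more, where these distances were 41 and 46 kb, the shares were 35.0%, 35.0% and 25% at start sites and 29.8%, 36.4% and 16.9% elsewhere. At 10 to 19 kb, where both distances were 3 kb, they were 50%, 57.8% and 38.2% at start sites and 50.4%, 58.7% and 36.7% elsewhere. Under 10 kb, where both were 1 kb, they were 78.9%, 81.7% and 60.6% against 77.4%, 77.4% and 58.7%.

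Differences by distance to the next control domain were small. Domains within 5 kb of another were lost in all 3 libraries in 24.5% of 1121 cases and domains at least 100 kb from any other in 31.6% of 1629, but their median widths were 13 and 9 kb. Among domains under 10 kb the shares were 48.5% and 42.0%.

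A-196 libraries also held peaks outside the control domains. Of their covered length, 60.6%, 39.0% and 62.4% lay in control domains. Peaks that touched no DMSO peak numbered 3745, 8782 and 3645, or 44.1%, 65.3% and 37.3% of all peaks, with a median width of 5 kb in each library, the narrowest that was called. Of these, 34.3%, 18.4% and 34.7% overlapped a peak of 1 or both other A-196 libraries, and 7.90%, 3.39% and 7.46% a peak of both. Replicate 2, which had the most peaks outside domains, also had the largest uncovered share inside them. Peaks under 10 kb made up 48.7% to 51.3% of all peaks with DMSO and 78.8%, 87.0% and 71.8% with A-196. Whether depth or enrichment differed between the libraries could not be seen in the lists, and its part in these values was not tested.

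The siRNA arm of the series gave a measure of how the outcomes with A-196 compared with those after siRNAs against SUV420H1. There, 4 libraries of cells given siSUV420H1 were set against 4 given control siRNA (siNC) for 6 days, with domains defined from 2 siNC libraries at a time. The series names 3 dishes per condition, so some of the 4 libraries of a group may share a dish. After siSUV420H1, 44.3% ± 0.862 of domain bases were uncovered, 43.8% ± 0.840 of domains were wholly lost, 22.4% ± 0.387 intact, 30.6% ± 0.463 trimmed only and 3.17% ± 0.176 fragmented (SD, n = 4). The spread between libraries was far smaller than with A-196. Interior gaps held 4.97% ± 0.237 of the uncovered bases after siSUV420H1 and 5.18% ± 0.332 with siNC, against 13.6% ± 1.02 with A-196 and 7.58% ± 1.52 with DMSO.

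The share of uncovered bases in gaps was thus 6.00 points higher than its control with A-196 and -0.205 points from its control with siSUV420H1. The difference between these effects was 6.20 points (exact permutation of treatment labels within each arm, p = 0.0157, adjusted p = 0.126 over 8 measures; exact permutation of arm labels, p = 0.0890, adjusted p = 0.251). It did not pass adjustment. Without DMSO replicate 1, 2 or 3 in turn the difference was 6.00, 6.67 and 6.04 points with an adjusted p of 0.0114 by exact permutation of treatment labels. The null of that permutation is no effect in either arm. A low p can therefore come from an effect in 1 arm and does not show that the arms differ. These settings were not planned, and no p from permuting arm labels is given for them. They also changed the domains, which came from 1 control library at a time in both arms. For bases uncovered, the effects of 50.8 and 38.1 points differed by 12.6 points. Exact permutation of treatment labels gave p = 0.634 and adjusted p = 0.865, and exact permutation of arm labels gave p = 0.0857 and adjusted p = 0.251. With effects this large in both arms, permuting treatment labels, with no effect in either arm as its null, cannot decide whether they are equal. In domains of 100 kb or more, 37.7% ± 11.4 of bases were uncovered with A-196 and 19.2% ± 0.428 with siSUV420H1, and 86.4% and 65.1% of domains were fragmented. The differences between the effects there were 18.3 and 18.8 points. Exact permutation of treatment labels, with the same limit, gave adjusted p = 0.903 and 0.925 over 15 measures. Exact permutation of arm labels gave p = 0.0212 and 0.0784, with adjusted p = 0.101 and 0.196. The arms differ in agent, controls and the IgG library used for peak calling, and these cannot be told apart.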

How the data were processed

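The H4K20me3 CUT&RUN libraries of 3 DMSO and 3 A-196 dishes of HN-SCC-151 cells were compared, grouped by title. The authors deposited peak positions per library (chromosome, start and end on hg38), with no count, score or signal. Per the submitters' processing notes, cutadapt 4.4, Bowtie, Picard 2.27.3 and bedtools 2.30.0 were used. Per the labels of the deposited lists, duplicates were removed and each library was called alone against 1 IgG library. The peak caller is not given in the sources used here, and depth was unknown, so no counting interval is given.

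Coverage was computed on the 1000 bp grid of the peak ends with Python 3.11.15 and numpy 2.4.6 and was tested on simulated domains. Of stretches covered in all DMSO libraries, 389 under 5 kb (1.089 Mb) were left out, as was chromosome Y. Library values were compared by exact two-sided permutation of group means, with Benjamini-Hochberg adjustment over 8 fate measures, 15 width measures or 23 chromosomes, with uncovered bases and whole loss as separate families, and a threshold of 0.05. P-values of the inhibitor comparison measure the spread between dishes of 1 cell line. Those that use the siRNA arm take its libraries as units, and some of these may share a dish. Counts over domains and genes have no test. Gene spans came from RefSeq (GRCh38.p14) without exons, and promoters from 15812 of 19974 coding genes; coordinates are 1-based.

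The rule for named domains took the 10 widest, the 5 widest that were lost, intact or trimmed only in every A-196 library, the 5 with the most stretches, the 5 widest with whole loss in 1 library and no loss in another, and up to 3 members per gene list. A domain that this rule names is not reported here. The domains, gene lists and tests were chosen with earlier results of these data known, so no list is independent support. The printed promoters were chosen after their domains' values were seen. The domain definition, the peaks used, chromosomes, group summary, replicate block and single libraries were varied.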

Additional observations from a re-analysis of the deposited data

Results flagged for a closer look

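The share of uncovered bases that lay in wholly lost domains was 66.6% in siSUV420H1 replicate 2 and 65.6% to 65.7% in the other 3 siSUV420H1 libraries, so that 1 library stood apart from a tight group by under 1 percentage point. It was the only such gap among 16 groups of 4 siRNA libraries and measures; chance gives one in about 1 in 20 groups, and groups of 3, which include both groups of the inhibitor comparison, were too small for this check.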

How the results depend on the processing

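Over 19 alternatives, the difference in bases uncovered ranged from 44.4 to 57.0 points, that in domains wholly lost from 12.4 to 53.6, in domains intact from -62.3 to -19.3, in domains fragmented from 1.21 to 26.7 and in the share of uncovered bases in gaps from 1.41 to 20.1, each in 1 direction. With domains from bases covered in any DMSO library, the difference was -18.5 points for domains trimmed only, -0.917 for domains of 20 to 49 kb fragmented and -0.517 for domains wholly lost on chromosome 19, and 4594 domains were lost and 89 intact in all A-196 libraries. With the peaks of 1 DMSO library at a time it was -10.6 for domains trimmed only and -0.00818 for domains under 10 kb fragmented. With peaks at or above the median width (8 kb), the difference in domains trimmed only was -2.57, and 462 domains were trimmed only and 121 fragmented in all. With every library limited to 79.6 Mb of its widest peaks, the difference was -32.2 for uncovered bases in wholly lost domains, 12.1 for those at edges, and -9.44, -12.3 and -5.13 for domains wholly lost on chromosomes 16, 19 and 22; 91 domains were lost, 29 intact and 253 trimmed only in all. That setting removes narrow peaks by construction. With domains of at least 10 kb, 473 were lost and 82 intact in all, and with edges and gaps of 1 kb filled, 363 were intact and 482 trimmed only. The causes of the other shifts were not tested.

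Leaving out 1 library at a time gave -10.9 to 4.66 points for domains trimmed only, -0.0295 to 0.0427 for domains under 10 kb fragmented, and 2117 to 2870 domains lost, 152 to 400 intact and 761 to 1241 trimmed only in all. In the comparison with the siRNA arm, the difference in domains intact was 2.77 with domains from all the other controls and -7.48 to 1.14 with 1 library left out. With 1 library left out, that in the gap share was 5.62 to 6.67, with an adjusted p of 0.0114 (exact permutation of treatment labels) without any 1 DMSO library and 0.0914 to 0.377 otherwise. Leaving out a DMSO library also meant domains from 1 control library at a time in both arms. The null of permuting treatment labels is no effect in either arm, so these p-values do not show that the arms differ. With the replicate block, the difference in bases uncovered was again 50.8 points and the smallest exact sign-flip p is 0.25. Same-numbered DMSO and A-196 libraries did not deviate together (correlations of 0.00994, 0.00604 and -0.0112 over 23851 regions). Counts of domains were not recomputed with group medians, the replicate block or 1 DMSO library at a time. Unknown depth and the 5 kb minimum of the peaks limit what remnants could be seen.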

Other observations

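MicroRNA genes gave a small further view of the control domains. Of 1558 annotated hairpins, 35 lay in a control domain, 6 of them in a domain wholly lost in every A-196 library and 18 in a domain that no A-196 library lost. Of all control domains, 28.6% were lost in every library and 31.6% in none. Some hairpins share a domain. Shares of hairpins and shares of domains are unlike units, since a wider domain has more room for a hairpin and wide domains were seldom wholly lost. The hairpins of MIR199A2, MIR214 and MIR3120 shared a 21 kb domain on chromosome 1 (172138001 to 172159000) that was lost in all 3 libraries. The 135 kb domain of MIR205, a microRNA of stratified epithelia (chromosome 1, 209314001 to 209449000), kept 63, 54 and 71 kb in A-196 replicates 1 to 3, in each case as several stretches. The 34 kb domain of MIR944, whose hairpin lies within the TP63 locus (chromosome 3, 189816001 to 189850000), kept 12, 8 and 32 kb and was trimmed only in each. A pair of sites on chromosome 21 were intact in every library, a 5 kb domain with MIR6724-4 (8430001 to 8435000) and an 82 kb domain with MIR10396A (8985001 to 9067000), as were the domains of MIR8078 on chromosome 18 (14 kb, 102001 to 116000) and of MIR4477B on chromosome 9 (8 kb, 63819001 to 63827000).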
